A study of Mus musculus with 15 samples.

Results

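Thy1, Dclk1, Mdk, Cplx1 and Vsnl1 are 5 genes grouped here as neuronal. They were measured with 8 of the 20205 probes on 2-colour arrays of mouse brain RNA. Their probes are those with 1 of these gene symbols as their only symbol in the platform annotation. On each array, RNA from brains of homozygous O377 mice was set against RNA from wild-type brains. O377 is an allele of Crybb2, the gene of a lens crystallin. Each of the 15 arrays held mutant RNA, labelled as from 5 O377 brains, against the same pool of 4 wild-type brains. The mutant RNA carried the dye Cy5 on 7 arrays and Cy3 on 8. Age, sex and strain background of the animals are not in the labels, nor is which brain lies on which array or whether the mutant RNAs were pooled.

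The values are log ratios of the dyes' signals, taken as log2, and are not expression levels. The labels do not state which of the RNAs or dyes is the numerator. For each probe the dye-switching component is therefore given, which is the mean with the mutant in Cy5 minus that where it was in Cy3, divided by 2. It is positive for a probe that was above 0 with the mutant in Cy5 and below 0 with the mutant in Cy3. The shared component is the mean of both orientation means. If the ratios run Cy5 over Cy3, the dye-switching component is the difference between mutant and wild type. If they run Cy3 over Cy5, it is that difference with its sign reversed. If mutant RNA is always the numerator, the shared component is that difference and the dye-switching component is a dye effect of the probe. If wild-type RNA always is, the same holds with the sign of the shared component reversed. The deposited values do not settle which of these holds, and genotype and dye cannot be told apart here.

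Thy1, Mdk and Dclk1 were chosen by their dye-switching component in an earlier analysis of the same arrays, where a probe of each passed an adjusted p of 0.05 in limma. Cplx1 was selected on the same component, where it passed after adjustment within a list of synaptic genes alone. No source used here gives the reason for choosing Vsnl1. Dye-switching values of the 5 genes are therefore a description, and only the shared component of these genes is tested. Of all 8058 probes with values on at least 4 arrays of each orientation, 52 (0.645%) passed in the dye-switching component, 27 with a positive and 25 with a negative value. Among the 7 tested probes of the 5 genes 3 are in that count, Thy1, Mdk and 1 probe of Dclk1, which is how they were chosen. The member nearest inside the threshold was Thy1 at -0.53 ± 0.11 (SE), and the nearest outside was Cplx1 at -0.28 ± 0.09.

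The products of the 5 genes act at different places in or around cells. Thy1 is a small glycoprotein of the immunoglobulin superfamily that a lipid anchor holds on the surface of neurons, and in the mouse it also sits on T lymphocytes. Dclk1 belongs to the doublecortin family, binds microtubules and carries a kinase domain. Mdk, midkine, is a heparin-binding growth factor related to pleiotrophin and is best known from the developing nervous system. Cplx1, complexin 1, binds the assembled SNARE complex that fuses synaptic vesicles with the membrane. Vsnl1, visinin-like 1, is a calcium sensor with EF-hands that moves to membranes when it binds calcium.

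The tissue label could not be checked against markers, since ratios hold no level and a probe with a value does not set brain apart from other tissues. Of 26 pan-neuronal marker genes other than Thy1, 20 had a named probe and 13 were tested. Between 7843 and 10515 probes had a value per array, and 20.5% of all probes had one on every array. Interquartile ranges were widest on array 10 (0.892) and array 9 (0.731), both with the mutant in Cy5, and lay between 0.386 and 0.578 on the other arrays. The 15 arrays draw on 5 mutant brains and a single control pool, so their spread may be technical, and p-values over arrays do not measure the spread of animals and are too small for it.

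In the Thy1 probe (1982) values were below 0 on every array with the mutant in Cy5 and mostly above 0 where it was in Cy3. They ran from -1.28 to -0.15 with a median of -0.48 with the mutant in Cy5 (n = 7 arrays). In the 8 arrays with the mutant in Cy3 they ran from -0.09 to 1.08 with a median of 0.48. The orientations did not overlap, although arrays 14 (-0.09) and 15 (-0.05) with the mutant in Cy3 lay close to 0. Values of both orientations did not overlap in 73 of the 8058 tested probes (0.906%), and Thy1 and Mdk are 2 of these. The means were -0.55 ± 0.41 (SD) with the mutant in Cy5, against 0.52 ± 0.46 where it was in Cy3, a dye-switching component of -0.53, or 1.45-fold in size.

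The size of the Thy1 value differed among arrays. With the sign reversed on arrays that held the mutant in Cy3, the value of Thy1 was -0.63, -0.48, -0.94 and -1.01 on arrays 1 to 4. It was -0.27, -0.19, -0.31 and -0.32 on arrays 5 to 8. On arrays 9 to 12 it was -0.83, -1.28, -1.08 and -0.64, and on arrays 13 to 15 it was -0.15, 0.09 and 0.05. Arrays are numbered in accession order. Arrays 1 to 4 and 9 to 12 thus held the 8 values furthest from 0, in both dye orientations. No label links an array to an animal or a day, and what these arrays share was not tested. The call of Thy1 ended when array 1, 2, 3, 4, 9, 11 or 12 was left out, each in turn, with a limma adjusted p of up to 0.0622, and without arrays 9 and 10 together, where the component was -0.43. A second Thy1 probe (17298) had a value on 1 array only, -0.35 on array 13 with the mutant in Cy5, and was not tested.

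**Figure D1:**
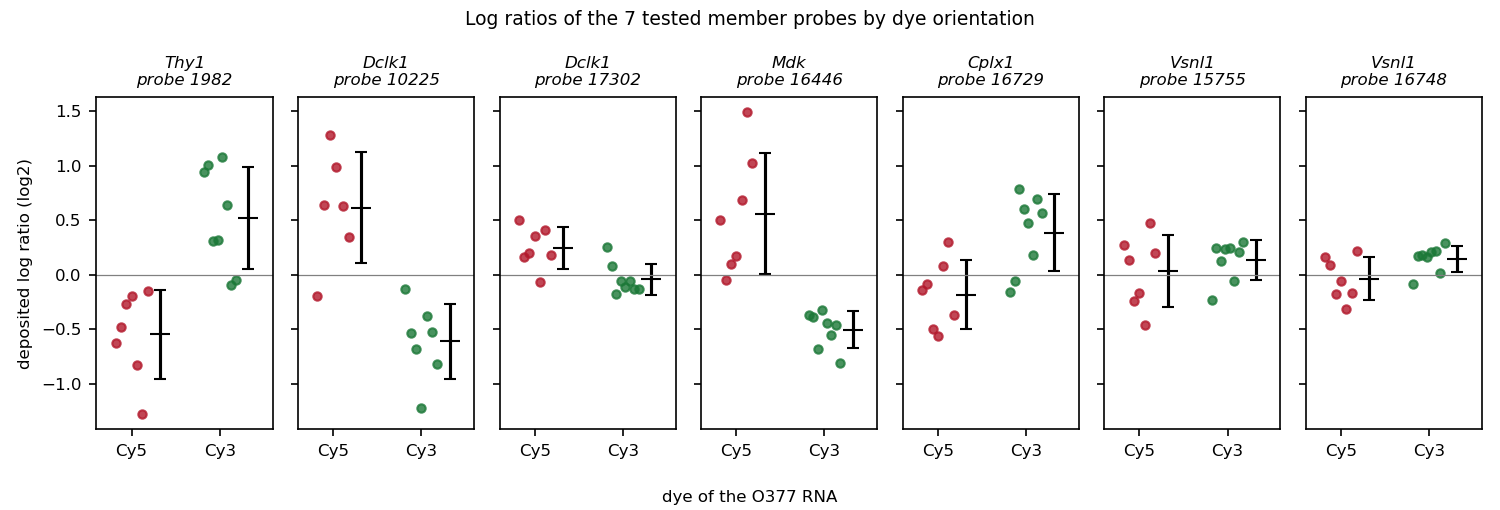
Deposited log ratios (log2, vertical axis) of the 7 tested probes of the 5 genes, by the dye of the O377 RNA (Cy5 left, Cy3 right). Each point is 1 array, and the bar beside it gives the mean and SD of that orientation. Thy1 is low with the mutant in Cy5, and Mdk and Dclk1 probe 10225 are low with the mutant in Cy3, while both Vsnl1 probes lie near 0 in both orientations.

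Dclk1 was measured by a pair of probes that lay on the same side but differed in size. Probe 10225, which the platform annotation ties to a RefSeq mRNA of the gene, had values on 13 arrays. Its values with the mutant in Cy5 were -0.19, 0.64, 1.28, 0.99, 0.63 and 0.35 on arrays 1, 2, 5, 6, 9 and 13. With the mutant in Cy3 they were -0.13, -0.53, -0.68, -1.22, -0.38, -0.52 and -0.82 on arrays 3, 4, 7, 8, 12, 14 and 15. All but array 1 lay on the positive side of the component, and the orientations overlapped only through that array. The means of 0.62 ± 0.51 (SD, n = 6) with the mutant in Cy5, against -0.61 ± 0.34 (n = 7) where it was in Cy3, gave a dye-switching component of 0.61 ± 0.11 (SE), which is 1.53-fold.

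Probe 17302 of Dclk1, annotated with no RefSeq mRNA, had values on all 15 arrays. With the mutant in Cy5 they ran from -0.07 to 0.50 with a median of 0.20 (n = 7), and where it was in Cy3 from -0.18 to 0.26 with a median of -0.08 (n = 8). The orientations overlapped, and 12 of 15 arrays lay on the positive side. Its component was 0.14 ± 0.05 (SE), with means of 0.25 ± 0.19 (SD) with the mutant in Cy5, against -0.04 ± 0.14 where it was in Cy3. This probe was among the least variable on the arrays: its residual SD of 0.167 was above that of only 2.63% of tested probes, against 0.428 for probe 10225 and a median of 0.337 over all.

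The components of the Dclk1 probes differed by 0.47. That difference was larger than in 97.9% of the 329 pairs of tested probes that share 1 gene symbol and at least 12 arrays, where the median difference was 0.09. Dclk1 was chosen by the component of probe 10225, so this rank describes the choice and supports nothing. Across the 13 arrays with both values the Dclk1 probes correlated at r = 0.52 (Spearman 0.59) as deposited. The deviations from the orientation means, in which the dye-switching part is taken out, had r = -0.01, as a description over arrays that share brains and the control pool. No source used here says which Dclk1 transcripts each probe detects.

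Dclk1 has start sites 219364 bases apart in the RefSeq annotation (GRCm38.p6, plus strand of chromosome 3). Their windows of 250 bases before to 50 after the start are shown, and any link to the probe values was not tested. They lie at chr3:55242114-55242413 and chr3:55461478-55461777. GC content was 52.7% and 50.3%, against a median of 52.7% over 32851 windows of the same length. Neither held the GC box GGGCGG on either strand, which 35.7% of all windows do, and capitals would mark it.
Dclk1, first start: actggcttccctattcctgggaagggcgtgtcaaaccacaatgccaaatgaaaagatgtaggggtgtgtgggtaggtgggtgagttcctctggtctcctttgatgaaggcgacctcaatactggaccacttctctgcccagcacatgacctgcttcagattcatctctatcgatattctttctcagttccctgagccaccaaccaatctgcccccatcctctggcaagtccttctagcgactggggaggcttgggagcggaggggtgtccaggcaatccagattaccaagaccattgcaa
Dclk1, second start: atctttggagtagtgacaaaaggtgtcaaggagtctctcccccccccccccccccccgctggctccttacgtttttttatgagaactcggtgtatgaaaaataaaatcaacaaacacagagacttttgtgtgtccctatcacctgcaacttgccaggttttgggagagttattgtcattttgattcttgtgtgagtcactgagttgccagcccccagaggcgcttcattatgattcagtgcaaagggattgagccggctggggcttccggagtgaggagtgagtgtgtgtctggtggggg

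**Figure D2:**
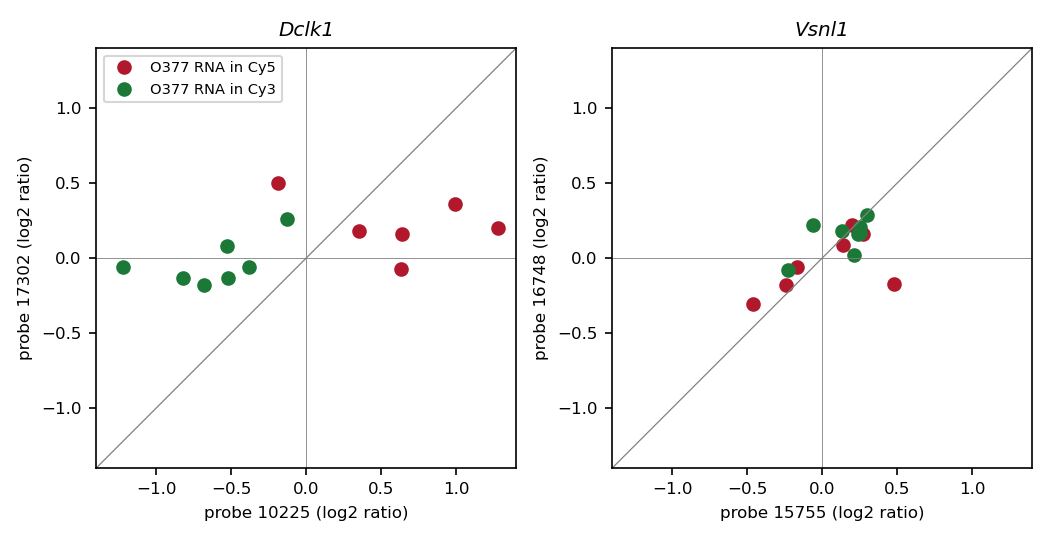
Log ratios (log2) of the pair of tested probes of Dclk1 (left) and of Vsnl1 (right), a point per array, coloured by the dye of the O377 RNA, with the line of equal values. In Dclk1, probe 10225 spreads from -1.22 to 1.28 while probe 17302 stays between -0.18 and 0.50, and in Vsnl1 most points lie near the line.

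Mdk, measured by 1 probe (16446), had values on all 15 arrays and showed the most uneven spread between orientations of the 5 genes. Its values with the mutant in Cy5 were 0.50, -0.05, 0.10, 0.17, 0.69, 1.49 and 1.03 on arrays 1, 2, 5, 6, 9, 10 and 13. With the mutant in Cy3 they were -0.37, -0.39, -0.68, -0.32, -0.44, -0.55, -0.46 and -0.81 on arrays 3, 4, 7, 8, 11, 12, 14 and 15. The 8 arrays with the mutant in Cy3 were all below 0 and close together, while with the mutant in Cy5 array 2 was just below 0 and array 10, the array with the widest interquartile range, was highest. The means were 0.56 ± 0.55 (SD) with the mutant in Cy5, against -0.50 ± 0.17 where it was in Cy3, a component of 0.53 ± 0.10 (SE) or 1.45-fold. Without arrays 9 and 10 it was 0.43.

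Cplx1, also with 1 probe (16729) and 15 values, lay on the same side as Thy1 and was smaller. With the mutant in Cy5 the values ran from -0.56 to 0.30 with a median of -0.14 (n = 7), and where it was in Cy3 from -0.16 to 0.79 with a median of 0.52 (n = 8). The orientations overlapped, and 11 of 15 arrays lay on the negative side of the component. The means were -0.18 ± 0.31 (SD) with the mutant in Cy5, against 0.39 ± 0.36 where it was in Cy3, which gave -0.28, or 1.22-fold in size.

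Cplx1 and Thy1 were mostly large on different arrays, apart from array 11, which was low in both. With the sign reversed where the mutant was in Cy3, Cplx1 was -0.14, -0.08, 0.16 and 0.06 on arrays 1 to 4, where Thy1 was at -0.48 or below. It was -0.50, -0.56, -0.79 and -0.60 on arrays 5 to 8, and -0.37, -0.70 and -0.57 on arrays 13 to 15, where Thy1 was nearer to 0. On arrays 9 to 12 it was 0.08, 0.30, -0.48 and -0.18. The deviations of Thy1 and Cplx1 from their orientation means had r = -0.81 (Spearman -0.83) over 15 arrays, the furthest from 0 of the 21 pairs among the 7 tested probes. This is a description over arrays that share brains and the pool, and it was singled out after all pairs had been seen. The others ran from -0.69, between Dclk1 probe 10225 and Vsnl1 probe 15755, to 0.58, between the probes of Vsnl1.

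**Figure D3:**
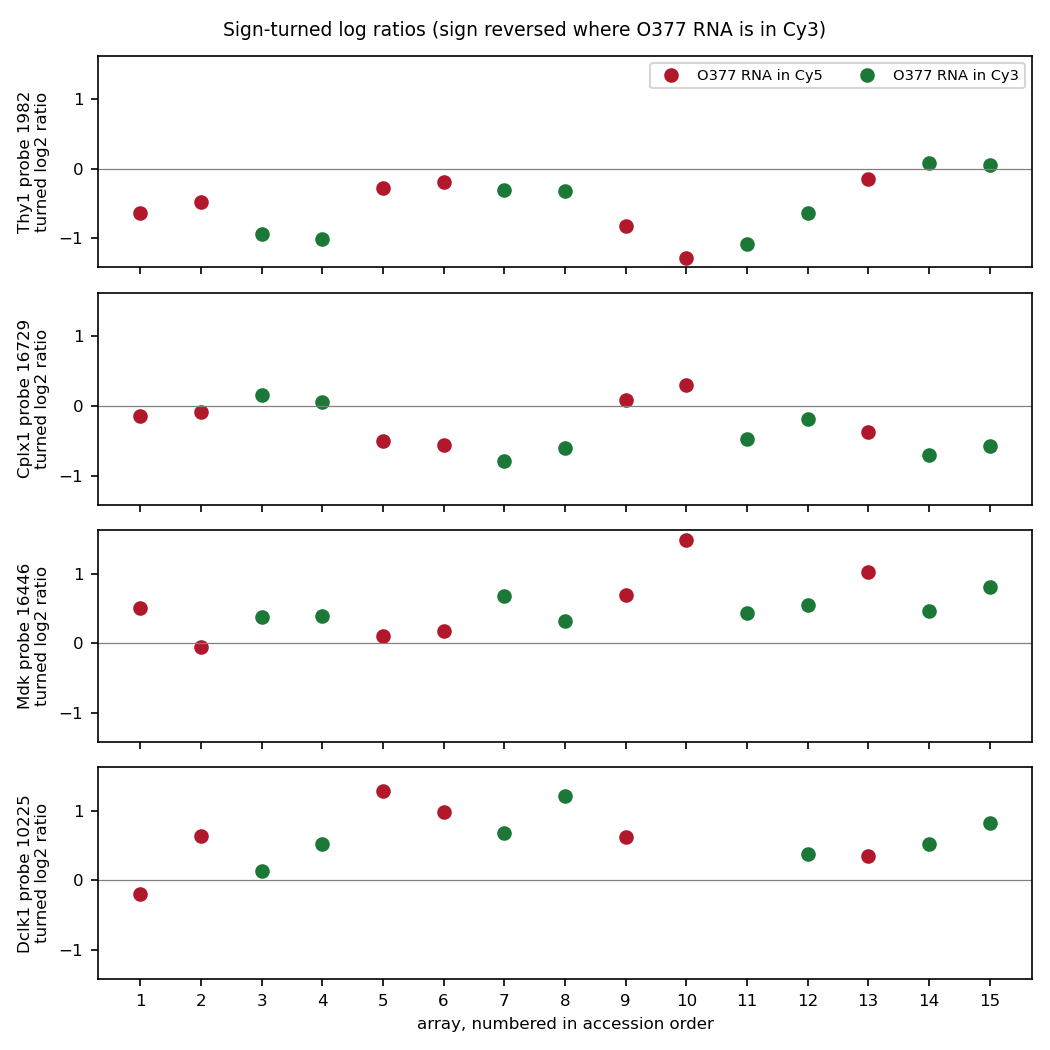
Log ratios (log2) with the sign reversed where the O377 RNA was in Cy3, by array in accession order, for Thy1, Cplx1, Mdk and Dclk1 probe 10225, with points coloured by dye. Thy1 is furthest from 0 on arrays 1 to 4 and 9 to 12, and Cplx1 on arrays 5 to 8 and 13 to 15, with array 11 also low.

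Vsnl1 lay near 0 in both of its probes. Probe 15755 ran from -0.46 to 0.48 with a median of 0.14 with the mutant in Cy5 (n = 7), and from -0.23 to 0.30 with a median of 0.22 where it was in Cy3 (n = 8). Probe 16748 ran from -0.31 to 0.22 with a median of -0.06 with the mutant in Cy5, and from -0.08 to 0.29 with a median of 0.17 where it was in Cy3. The orientations overlapped in both. The dye-switching components were -0.05 (95% confidence interval -0.20 to 0.10) and -0.09 (-0.20 to 0.02). The probes agreed in sign on 13 of 15 arrays, with a median difference of 0.08, r = 0.59 and Spearman 0.44 as deposited. Array 10 was the clearest exception, at 0.48 on probe 15755 and -0.17 on probe 16748.

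Vsnl1 likewise has separate RefSeq start sites, 927 bases apart on the minus strand of chromosome 12, and the windows are shown in the same way. They lie at chr12:11436529-11436828 and chr12:11435602-11435901 (GRCm38.p6). The first window held 18 CpG dinucleotides and 1 GC box, GGGCGG, in capitals below, and the second held 6 CpG dinucleotides and none. GC content was 58.7% in the first and 44.3% in the second. These matches are letters in a window, not sites known to be bound. Windows were found for 3 of the 5 genes, and that of Cplx1, on chromosome 5, had a GC content of 67% with 2 GC boxes.
Vsnl1, first start: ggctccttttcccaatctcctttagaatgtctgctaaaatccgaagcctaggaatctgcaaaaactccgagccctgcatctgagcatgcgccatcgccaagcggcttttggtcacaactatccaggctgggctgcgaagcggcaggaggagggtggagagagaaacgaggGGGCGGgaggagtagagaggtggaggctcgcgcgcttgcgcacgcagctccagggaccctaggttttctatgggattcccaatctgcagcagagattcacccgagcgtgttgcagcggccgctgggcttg
Vsnl1, second start: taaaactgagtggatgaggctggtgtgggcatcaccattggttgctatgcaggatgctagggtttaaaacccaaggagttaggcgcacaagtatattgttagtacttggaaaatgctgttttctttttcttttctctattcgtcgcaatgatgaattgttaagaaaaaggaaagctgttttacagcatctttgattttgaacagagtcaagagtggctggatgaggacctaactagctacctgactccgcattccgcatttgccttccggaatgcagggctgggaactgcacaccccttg

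In the shared component, which is not the one that Thy1, Dclk1, Mdk and Cplx1 were chosen by, none of the 7 tested probes passed. Whether it entered the choice of Vsnl1 is not known. This is the difference between mutant and wild type if mutant RNA is always the numerator. Of all 8058 tested probes 0 (0.0%) passed by limma, and 765 (9.49%) had an unadjusted p below 0.05, which none of the 7 did. With robust regression 107 of all probes (1.33%) passed and again none of the 7. Thy1 stood at -0.01 (95% confidence interval -0.24 to 0.21, limma adjusted p = 0.975), and Mdk at 0.03 (-0.18 to 0.24, limma adjusted p = 0.94). Dclk1 was at 0.00 (-0.24 to 0.24) on probe 10225 and at 0.10 (-0.01 to 0.22) on probe 17302, with limma adjusted p of 0.995 and 0.551. Cplx1 was at 0.10 (-0.08 to 0.28, limma adjusted p = 0.708). Vsnl1 was at 0.08 (-0.07 to 0.23) and 0.06 (-0.06 to 0.17), with limma adjusted p of 0.708 and 0.734. The median of the 7 was 0.06, beside 0.00 over all tested probes.

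**Figure D4:**
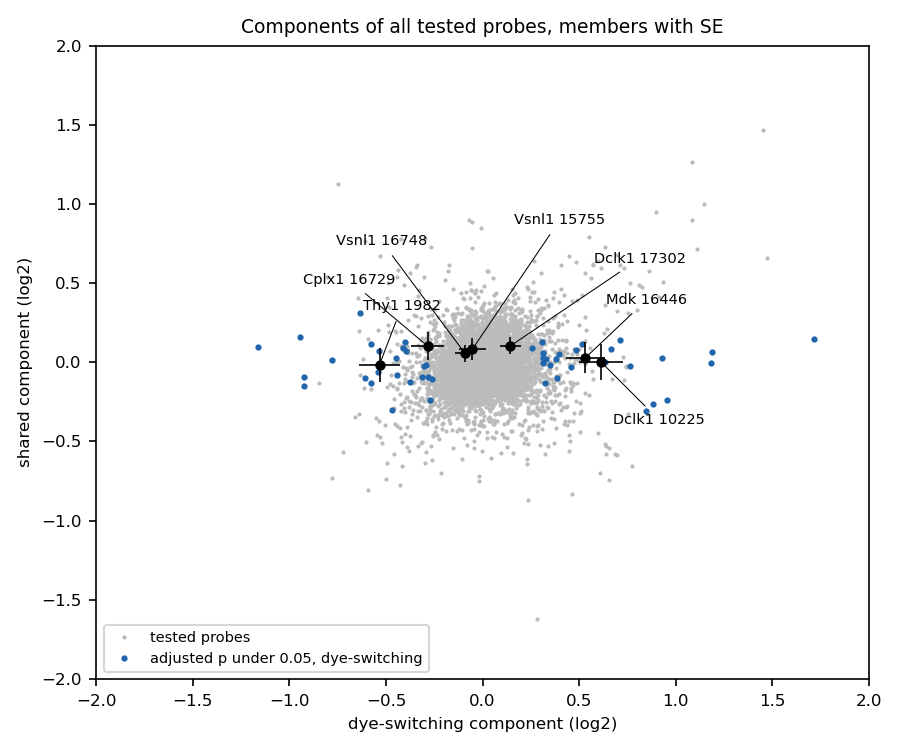
Dye-switching component (horizontal, log2) against shared component (vertical, log2) of the 8058 tested probes in grey, with those past an adjusted p of 0.05 in the dye-switching component in blue and the 7 probes of the 5 genes in black with SE bars. Thy1 at -0.53, Mdk at 0.53 and Dclk1 probe 10225 at 0.61 lie far out horizontally, which is how they were chosen, and all 7 lie within 0.11 of 0 vertically.

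No listed relative or partner of the 5 genes passed in either component by limma. In 6 lists of pan-neuronal markers and of relatives and partners of the 5 genes, which leave the 5 out, 77 probes of 64 genes were tested. Not all of these genes are particular to neurons, and S100b is also in the astrocyte list. By limma 0 passed in the dye-switching component and 5 had an unadjusted p below 0.05, beside 9.57% of all tested probes. In the shared component 0 passed and 7 had an unadjusted p below 0.05, beside 9.49% of all. With robust regression 1 of the 77 passed in the dye-switching component, Gap43, a growth cone protein, beside 2.53% of all tested probes. In the shared component 0 of the 77 passed with it, beside 1.33% of all. The median dye-switching component of the 77 probes was 0.01, as over all tested probes, and the median size was 0.07, beside 0.08 over all.

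Among pan-neuronal markers, 10 of 16 probes lay above 0 and 6 below, and 0 passed. The most positive was the endosomal protein gene Nsg1 at 0.18 ± 0.18 (SE, limma adjusted p = 0.796). A second Nsg1 probe was at -0.07 ± 0.10, on the other side. The most negative was Gap43 at -0.19 ± 0.07 (limma adjusted p = 0.35), with means of -0.29 ± 0.17 (SD) with the mutant in Cy5, against 0.10 ± 0.26 where it was in Cy3. Among neural surface proteins of the immunoglobulin superfamily, the company of Thy1, 6 probes of 5 genes were tested and 0 passed. They ran from the integrin-associated protein gene Cd47 at -0.26 ± 0.13 (limma adjusted p = 0.539) to the cell adhesion gene Dscam at 0.25 ± 0.12 (limma adjusted p = 0.567). This list did not hold Cd200, another surface glycoprotein of the superfamily. The tested Cd200 probe was at -0.29 ± 0.08 (limma adjusted p = 0.191), below Cd47 and on the side of Thy1.

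Of microtubule proteins and the doublecortin family, the company of Dclk1, 18 probes of 14 genes were tested and 0 passed. They ran from Pafah1b1, which regulates dynein, at -0.23 ± 0.14 (limma adjusted p = 0.638) to the microtubule-associated protein gene Map4 at 0.27 ± 0.17 (limma adjusted p = 0.66). Its closest relatives Dcx, Dclk2 and Dclk3 had no probe with that symbol alone. For Mdk, its relative Ptn had none either. Of 15 probes of 11 receptor and matrix genes that bind these factors or belong to the families that do, 0 passed, with a median of -0.05. The range was from the proteoglycan gene Acan at -0.17 ± 0.21 (limma adjusted p = 0.835) to the integrin gene Itgb3 at 0.34 ± 0.15 (limma adjusted p = 0.49). The 4 probes of the integrin gene Itgb1 lay between -0.13 and -0.06.

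Of the release machinery around complexin, 16 probes of 14 genes were tested and 0 passed. The range was from Syn2, which tethers vesicles, at -0.13 ± 0.06 (limma adjusted p = 0.463) to the vesicle GTPase gene Rab3b at 0.57 ± 0.36 (limma adjusted p = 0.662). The values of Rab3b averaged 0.47 ± 0.33 (SD) with the mutant in Cy5, against -0.68 ± 2.11 where it was in Cy3, a far wider spread. Of Cplx2 and Cplx3, relatives of Cplx1, only Cplx3 had a tested probe, and it was at 0.11 ± 0.08 (limma adjusted p = 0.706), on the other side from Cplx1. Whether Cplx1 and Cplx3 differ was not tested.

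Of calcium sensors and buffers, the company of Vsnl1, 14 probes of 13 genes were tested and 0 passed, 4 above 0 and 10 below, with a median of -0.05. The glial calcium-binding gene S100b was lowest at -0.15 ± 0.07 (limma adjusted p = 0.532) and Hpcal4 highest at 0.09 ± 0.12 (limma adjusted p = 0.842). The other tested relatives of Vsnl1 in the visinin-like and neurocalcin group were Hpca at -0.04 ± 0.10, Hpcal1 at -0.02 ± 0.06 and Ncald at -0.08 ± 0.11, with limma adjusted p from 0.853 to 0.952. In the shared component Hpcal1 was at 0.17 ± 0.06 (limma adjusted p = 0.418).

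Markers of other brain cells were looked at in the same way, and their part in the values of the 5 genes was not tested. In 6 lists of other cells 21 probes of 17 genes were tested, 0 passed by limma in either component, and 4 had an unadjusted p below 0.05 in the dye-switching component, beside 9.57% of all tested probes. In the shared component 1 did, beside 9.49% of all. List medians of the dye-switching component were -0.04 in astrocytes (5 probes), -0.04 in oligodendrocytes and myelin (3) and -0.02 in microglia (2). Astrocyte probes ran from S100b at -0.15 to Glul at 0.46 ± 0.18 (limma adjusted p = 0.421). A second Glul probe was at -0.01. Oligodendrocyte and myelin probes ran from -0.22 ± 0.09 (limma adjusted p = 0.419) to -0.03, both for Mbp. Microglial probes were C1qb at -0.05 and Tyrobp at 0.00. The list median was -0.06 in endothelium and pericytes (6), from Pdgfrb at -0.36 ± 0.33 (limma adjusted p = 0.779) to Acta2. In choroid plexus and meninges (4) it was 0.05, from Dcn at -0.09 to Col1a2 at 0.12. For T lymphocytes, which carry Thy1 in the mouse, only the T cell receptor complex gene Cd3d was tested, at 0.12 ± 0.08 (limma adjusted p = 0.68), on the other side from Thy1. The smooth muscle actin gene Acta2, at 0.21 ± 0.05 (limma adjusted p = 0.0756), was the 1 probe of these lists to pass with robust regression, beside 2.53% of all tested probes.

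**Figure D5:**
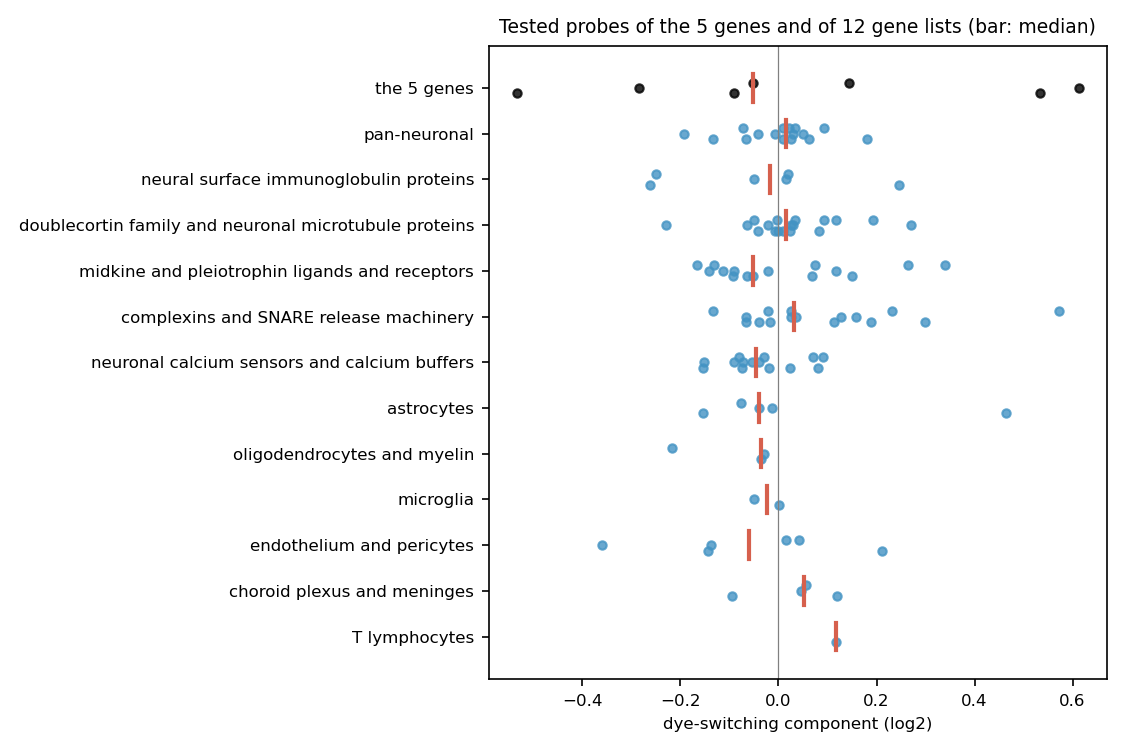
Dye-switching component (log2, horizontal) of the tested probes of the 5 genes (black, top row) and of 12 gene lists that leave them out (blue), a point per probe with the median as a bar. Rows for lists stay mostly between -0.3 and 0.3, with Rab3b at 0.57 the furthest, and no listed probe passed the threshold.

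The probes whose values over the arrays were most like those of the 5 genes were sought among named probes sharing at least 12 arrays, 3 per probe. The measure was Pearson's r of deposited values, given as a description of the best of 3559 to 4190 probes. Thy1 was most like the phospholipid scramblase gene Plscr3 (r = 0.89, 13 arrays), the sterol-binding protein gene Osbpl6 (0.87, 15 arrays) and Cd200 (0.85, 13 arrays), a surface glycoprotein of the immunoglobulin superfamily. Mdk was most like Zswim7 (0.93), Acta2 (0.90) and the DNA methyltransferase gene Dnmt1 (0.89), each over 15 arrays. Cplx1 was most like Scg5 (0.84, 15 arrays), a neuroendocrine chaperone gene, then C1rl (0.83) and Isoc2b (0.82).

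The Dclk1 probes had no gene in common among their nearest. Probe 10225 was most like the adipokine gene Serpina12 (0.81, 12 arrays), the mRNA decay gene Zfp36 (0.80) and the calpain gene Capn5 (0.79). Probe 17302 was most like Gdpd5 (0.89, 13 arrays), Nr2c2ap (0.88) and the menin gene Men1 (0.85). The Vsnl1 probes also shared none: probe 15755 was nearest to the prolyl isomerase gene Ppib (0.90), 1110002E22Rik (0.84) and the ATP synthase gene Atp5pb (0.82), and probe 16748 to Dnph1 (0.84), the amyloid precursor-like gene Aplp2 (0.83) and the ribosomal protein gene Rpl9 (0.82). Scg5, Serpina12 and Zswim7 were themselves past the threshold in the dye-switching component, at -0.95, 1.18 and 0.39. All 21 nearest probes had a dye-switching component on the same side as their member, such as Osbpl6 (-0.42), Cd200 (-0.29) and Plscr3 (-0.25) beside Thy1 and C1rl (-0.29) and Isoc2b (-0.26) beside Cplx1. Their likeness in deposited values therefore holds the same turn of sign with the dyes that the members were chosen by, apart from Vsnl1, whose choice is not explained.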

How the data were processed

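Each value the authors deposited is a log ratio of a probe on an array, taken here as log2. Log base, direction, spot filter and normalization are not given in the sources used here. Base 2 was taken because the largest size, 12.3, as a natural log would exceed the range of a usual scanner. Deposited array medians lay between -0.0062 and 0.0165, which shows prior centring. The scale, centring method and direction are unknown. Per the labels, channel 2 held the O377 RNA, and its dye gave the orientation. Values were used as deposited, without scanner signals. Precision is limited by the number of arrays and, for animals, by the brains they share.

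Probes were named from the platform annotation, 11723 with 1 symbol, 806 with several and 7676 with none, and 11590 of the first matched a gene identifier of the GRCm38.p6 reference. Promoter windows are from RefSeq.

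Linear models with a dye term were fitted in limma 3.58.1 (R 4.3.3) to the 8058 probes with at least 4 values per orientation, with eBayes and Benjamini-Hochberg adjustment over all of them. The model was run on simulated data with values drawn independently for each array. Such data leave out the brains and the pool that the real arrays share, so they cannot check error rates under that sharing. The genes and lists were chosen with earlier results of these data known. From each list the genes past the threshold and the most positive and most negative were named. The nearest relatives and, per probe, the 3 most alike were named as well. Itgb1, second probes of Glul and Nsg1, and Cd200 beside the list for Thy1 were named after their values had been seen. Alternatives were other centring, scaling, filters, weights, variance model and regression, limited values, averaged probes, no dye term and left-out arrays. Figures were drawn with matplotlib 3.10.9.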

Additional observations from a re-analysis of the deposited data

How the results depend on the processing

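The dye-switching components of all 7 probes kept their sign in 15 fits without 1 array and under 10 other alternatives. That of Thy1 ran from -0.58 to -0.47 without single arrays and from -0.54 to -0.43 otherwise, Mdk from 0.46 to 0.58 and from 0.42 to 0.53, and Dclk1 probe 10225 from 0.55 to 0.69 and from 0.36 (mean of both Dclk1 probes) to 0.68. For probe 17302 that mean, 0.36, is 2.46 times its own value. In 15 fits without 1 array, Mdk and Dclk1 probe 10225 passed in all, and Thy1 in 8; it missed without array 1, 2, 3, 4, 9, 11 or 12, and without arrays 9 and 10 together (adjusted p up to 0.0854 in limma). Under the variance trend described next Thy1, Mdk and Dclk1 probe 10225 all missed. Thy1, Mdk and Dclk1 were chosen by passing in this component on the same arrays, so these counts of fits are a description and no test. Robust regression gave 204 probes past the threshold in the dye-switching component, against 52, and 107 in the shared component, against 0; the cause was not tested. A variance trend on the mean size of a probe's values, fitted with limma's robust option for the variances, gave 0 in the dye-switching component. The main fit used neither the trend nor that option, and their separate parts were not tested. By its construction that mean size holds the difference itself, and whether this bears on the calls was not tested. In the shared component none of the 7 probes passed under any of the 26 alternatives run. No paired analysis was possible because the labels give no numbers that join arrays of both orientations.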

Other observations

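Tested probes that share a gene symbol seldom varied together on these arrays. Over 329 such pairs, of 286 genes, with at least 12 arrays in common, the median Pearson correlation of deposited values was -0.02, with quartiles of -0.26 and 0.23. The pair of Vsnl1 was at 0.59. That of Dclk1 was at 0.52, which holds the dye-switching part that Dclk1 was chosen by, and its deviations from the orientation means had r = -0.01. These are correlations over arrays that share brains and the control pool, and no reason for the low median was tested.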
